A study of Mus musculus with 2 samples.

Results

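The Ikaros family of zinc-finger transcription factors has 5 genes in the mouse: Ikzf1 (Ikaros), Ikzf2 (Helios), Ikzf3 (Aiolos), Ikzf4 (Eos) and Ikzf5 (Pegasus). They are 5 of the 32285 genes counted in a single-cell RNA dataset of small-intestinal cells that express the interleukin-23 (IL-23) receptor. The 5 genes were taken by symbol, and the set was chosen by the levels and shares of cells that its members showed in these libraries, so the levels and ratios given here are a description and carry no test.

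The cells came from the small intestine of mice with the genotype Il23r-eGFP, a knock-in reporter in which cells that use the Il23r locus fluoresce. Live eGFP-positive cells were sorted from leukocytes after removal of Peyer's patches and epithelium. The study has 2 libraries of 10x Genomics droplets, 1 labelled Unstimulated and 1 labelled IL-23, and the stimulus was recombinant mouse IL-23 for 2 hours. The Il23r-eGFP allele is shared by both. The labels name no age, sex or number of animals, and the protocol text of the library labelled Unstimulated also mentions the stimulus, so the treatment rests on the group label. With 1 library per group there is no replicate check, no p-value is given, and every interval below covers counting error only.

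Ikaros family proteins bind DNA through fingers near the N-terminus and pair with each other through fingers at the C-terminus. Ikaros, Helios and Aiolos recruit the chromatin-remodelling and deacetylase complex NuRD and, at other sites, activate transcription. In lymphocytes Ikaros is required for normal lineage development and has been described as a restraint on the aryl hydrocarbon receptor in group 3 innate lymphoid cells (ILC3s), the IL-22-producing cells of the gut wall. Helios is best known from regulatory T cells and thymocytes, Aiolos from B cells and from T helper 17 cells, in which it silences Il2, and Eos from regulatory T cells, in which it acts as a corepressor with Foxp3. Pegasus is expressed in many tissues and binds a different DNA element. The IL-23 receptor signals mainly through STAT3.

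On GRCm38, Ikzf1 (ENSMUSG00000018654) lies at chr11:11685003-11772926 on the plus strand. The other 4 genes are on the minus strand: Ikzf2 (ENSMUSG00000025997) at chr1:69531214-69687245, Ikzf3 (ENSMUSG00000018168) at chr11:98464902-98546031, Ikzf4 (ENSMUSG00000002578) at chr10:128630843-128645991 and Ikzf5 (ENSMUSG00000040167) at chr7:131388652-131410521. All 5 are protein-coding. Ikzf5 shares 4652 exonic bases with Pstk, which runs on the opposite strand, and the sources used here do not say whether counting used the strand, so part of either gene's count could belong to the other. Pstk itself was at 10.5 CPM in the unstimulated library and 7.26 in the IL-23 library. Ikzf2 shares 144 exonic bases with the antisense gene Gm29114, which was under 1 CPM (counts scaled to 1000000) in both libraries (0.150 and 0.357).

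RefSeq promoter windows on GRCm38.p6, each from 250 bases before to 50 bases after a start site, were matched by symbol for 2 members: Ikzf1 with 2 start sites and Ikzf5 with 1. Windows for Ikzf2, Ikzf3 and Ikzf4 were not used here. Each window was searched on both strands for the STAT-type element TTCNNNGAA, the AP-1 element TGANTCA and the Ikaros core TGGGAA. TTCNNNGAA and TGGGAA can share letters, and the last 2 elements were found in none of the 3 windows. The windows with a match are shown because 1 belongs to a member that was higher in the IL-23 library and 1 to the member that was lower. Capitals mark the match to TTCNNNGAA. The first lies at chr11:11689927-11690226 on the plus strand and the second at chr7:131410429-131410728 on the minus strand, and both read 5′ to 3′ along the gene.
Ikzf1, second start site: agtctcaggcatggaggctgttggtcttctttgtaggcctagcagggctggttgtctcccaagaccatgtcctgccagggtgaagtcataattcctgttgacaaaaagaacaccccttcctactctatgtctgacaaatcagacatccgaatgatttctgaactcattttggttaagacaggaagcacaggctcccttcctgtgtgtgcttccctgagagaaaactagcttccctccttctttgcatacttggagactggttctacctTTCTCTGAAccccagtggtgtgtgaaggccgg
Ikzf5: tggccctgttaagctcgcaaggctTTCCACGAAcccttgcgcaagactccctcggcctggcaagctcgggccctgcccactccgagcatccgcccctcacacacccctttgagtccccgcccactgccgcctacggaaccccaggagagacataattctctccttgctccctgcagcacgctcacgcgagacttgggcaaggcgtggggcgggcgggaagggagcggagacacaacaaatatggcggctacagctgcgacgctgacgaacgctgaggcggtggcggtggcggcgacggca

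The Ikzf1 match begins at position 18 and the Ikzf5 match at position -226, counted from the start site as 0. The other Ikzf1 window, at chr11:11685675-11685974, is 81.3% G and C and holds no match to TTCNNNGAA either, against 49% for the second Ikzf1 window, 65.7% for Ikzf5 and a median of 52.7% over all windows. Of all 32851 RefSeq windows of this length, 8.30% hold TTCNNNGAA, 7.81% hold TGANTCA and 25.6% hold TGGGAA. A match is a run of letters and not a measured binding site.

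Cells with at least 500 detected genes and at most 10% mitochondrial counts were kept, 10790 of 11096 barcodes in the unstimulated library and 9251 of 10440 in the IL-23 library. The median count per cell was 4928 and 6087 unique molecular identifiers (UMIs, each a counted RNA molecule), so the IL-23 library was deeper per cell. The libraries shared 29 barcodes. Cells without a UMI of Cd3e, Cd3d or Cd3g were divided into an Ncr1 class (1052 unstimulated and 1258 IL-23 cells with Ncr1, the NKp46 receptor of one ILC3 subset, and no Ccr6), a Ccr6 class (1535 and 1464 cells with Ccr6, a receptor of lymphoid tissue inducer-like ILC3s, and no Ncr1) and cells with neither transcript (7440 and 5802). Cells with Cd3e formed a γδ T class (232 and 221 cells with Trdc and no Trac) and an αβ T class (163 and 99 cells with Trac and no Trdc). A transcript missed at this depth places a cell in the class with neither, so that class is a mixture.

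Genes that mark ILC3s were present in the CD3-negative cells of both libraries, with 8 of the 8 listed genes above 0. Il23r, the receptor gene behind the sort, was at 129 CPM unstimulated and 187 CPM with IL-23, Il7r, the IL-7 receptor of innate lymphoid cells, at 364 and 280 CPM, and Id2, a factor needed for their development, at 528 and 626 CPM. The natural killer and ILC1 list (Eomes, Klrb1c, Gzma, Prf1 and Klra8) summed to 5.89 and 29.7 CPM, with 4 of 5 genes above 0, Klra8 at 0 and Eomes at 1 and 5 UMIs. The regulatory T cell list (Foxp3, Il2ra and Ctla4) summed to 430 and 784, while Foxp3 alone had 22 and 15 UMIs in all CD3-negative cells. The T cell list (Cd3e, Cd3d, Cd3g, Trac, Trdc, Trbc1 and Trbc2) summed to 480 and 364 CPM, with the Cd3 genes at 0 by the class rule. At least 2 UMIs of it were in 4799 and 3902 CD3-negative cells, so T cell receptor constant transcripts were common there. The plasma cell list summed to 1633 and 477 CPM, carried by 86 and 42 cells with at least 2 UMIs of it. The part of these marker shifts in the results below was not tested, except that leaving out cells with B cell or macrophage transcripts, or with at least 20 UMIs of Igkc, is among the alternatives.

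Levels are the UMIs of a gene summed over a class and scaled to 1000000 UMIs of that class (CPM), with exact Poisson 95% intervals. A ratio of at least 1.5-fold is called a difference in size. Genes counted as measured had at least 10 CPM in 1 or both of the summed groups and at least 20 UMIs over both, and all 5 members passed in each comparison. In CD3-negative cells 3 of the 5 members were at least 1.5-fold higher in the IL-23 library (Ikzf4, Ikzf1 and Ikzf2), 0 were at least 1.5-fold lower, and 2 lay between. Of the 6996 genes measured there, 3.96% were higher by that size and 3.57% were lower. The members' median log2 ratio was 0.74, beside -0.11 over all measured genes. Scaling with TMM factors instead raised each log2 ratio of this comparison by 0.12, which returns the median gene to about 0. Relative to the median gene the log2 ratios were 1.96 for Ikzf4, 0.93 for Ikzf1, 0.86 for Ikzf2, 0.30 for Ikzf3 and -0.41 for Ikzf5, so the sign of each stayed as it was.

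**Figure D1:**
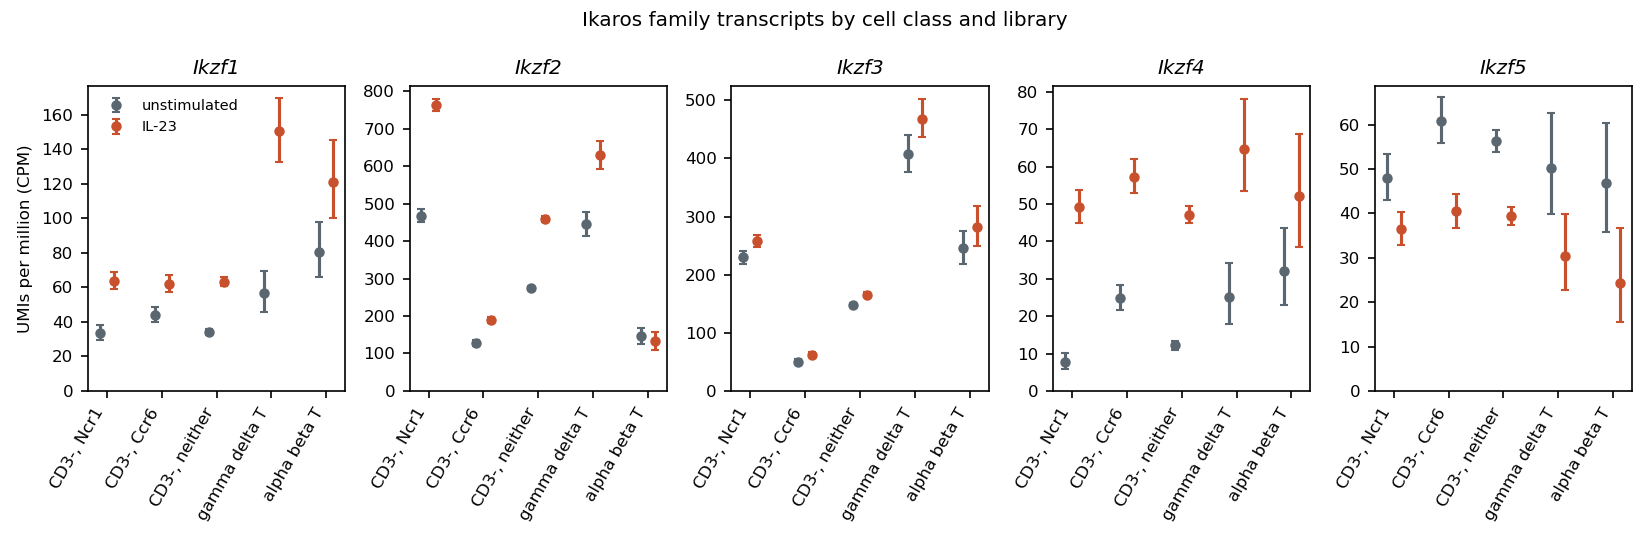
Level of each Ikaros family gene (y axis, CPM, linear scale that differs between panels) in 5 cell classes (x axis), with grey points for the unstimulated and orange points for the IL-23 library. Bars are exact Poisson 95% intervals, and the panels show Ikzf2 in the Ncr1 class at 468 and 763 CPM beside 127 and 189 CPM in the Ccr6 class.

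Ikzf4, which encodes Eos, had the highest ratio of the 5 members in CD3-negative cells. Its level there was 13.7 CPM (730 UMIs) in the unstimulated library and 49.5 CPM (2774 UMIs) in the IL-23 library, a ratio of 3.61-fold (3.33 to 3.92). Only 44 of the 6996 measured genes had a higher ratio. The unstimulated levels ran from 7.86 CPM (5.90 to 10.3) in the Ncr1 class through 12.2 in cells with neither transcript, 24.8 in the Ccr6 class and 25.2 in γδ T cells to 32.1 in αβ T cells. The last 3 had overlapping intervals. With IL-23 the range was narrower, from 47.0 CPM in cells with neither transcript to 64.8 CPM in γδ T cells, with 49.2 in the Ncr1 class, 52.1 in αβ T cells and 57.3 in the Ccr6 class, and each of these neighbours in the order overlapped. In each class the IL-23 level lay above the unstimulated one, and the intervals overlapped in αβ T cells alone.

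As counted, the class with the lowest unstimulated level of Ikzf4 had the highest ratio. In the Ncr1 class it was 6.21-fold (4.72 to 8.45), from 54 to 487 UMIs, and 23 of 6890 measured genes had a higher ratio. Cells with neither transcript had a ratio of 3.86-fold, γδ T cells of 2.56-fold, the Ccr6 class of 2.31-fold (1.98 to 2.70) and αβ T cells of 1.62-fold (log2 0.70, with an interval of 0.07 to 1.33). The αβ T value was below the 1.5-fold size without the 5% of cells with most UMIs, at a log2 ratio of 0.45, and turned to -0.21 when cells were thinned to 2000 UMIs. The ratio in the Ncr1 class was 2.69 times that in the Ccr6 class (1.96 to 3.70 by counting error, with no test over samples). With each cell thinned to 2000 UMIs the log2 ratio in the Ncr1 class was 1.97 in place of 2.63, so the fold was smaller by over 1.5 times. Thinned levels were 12.0 and 47.7 CPM there, 11.9 and 44.7 in cells with neither transcript, and 23.8 and 55.8 in the Ccr6 class. The thinned unstimulated Ncr1 level rests on 22 cells with an Ikzf4 UMI, 2.11% (1.32 to 3.17) of the class. In unstimulated cells with neither transcript the share was 2.25% (1.92 to 2.62). These intervals overlap, so no order of these classes is read from thinned cells. The value of 2.69 was not recomputed. The natural killer and ILC1 list summed to 16.3 and 64.8 CPM in the Ncr1 class (3 and 4 of 5 genes above 0, Klra8 at 0 in both, Eomes at 0 and 2 UMIs). That list was also higher with IL-23 in cells with neither transcript (5.22 and 28.3 CPM), γδ T cells (14.5 and 87.2) and the Ccr6 class (0.783 and 3.70). In αβ T cells the list was at 191 and 199 CPM. Its part in the Ikzf4 ratio was not tested. Without cells carrying B cell or macrophage transcripts the Ncr1-class log2 ratio of Ikzf4 was 2.73.

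Per cell, Ikzf4 was sparse in both libraries. Of Ncr1-class cells, 96.1% had 0 Ikzf4 UMIs in the unstimulated library and 75.8% in the IL-23 library. Cells with at least 2 Ikzf4 UMIs are rare enough to count: 7 unstimulated cells had 2 and 3 had 3, while 75 IL-23 cells had 2, 29 had 3, 10 had 4 and 5 had 5. At an equal depth of 2000 UMIs per cell, 2.54% (2.24 to 2.87, Clopper-Pearson) of unstimulated CD3-negative cells and 8.31% (7.73 to 8.93) of IL-23 cells had an Ikzf4 UMI, beside 5.74% and 21.7% as counted. Shallower cells, 394 and 320 of the CD3-negative cells, were left out of the thinned shares. The thinned share was higher with IL-23 in the Ncr1 class (2.11% and 8.82%), the Ccr6 class (4.16% and 9.42%), cells with neither transcript (2.25% and 7.85%) and γδ T cells (4.74% and 11%). In αβ T cells it was 4.38% and 4.08%, which runs against the CPM and rests on few cells, so no order is read from it.

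Ikzf1, which encodes Ikaros itself, was also higher in the IL-23 library. In CD3-negative cells it was at 35.8 CPM (1908 UMIs) unstimulated and 63.2 CPM (3544 UMIs) with IL-23, a ratio of 1.77-fold (1.67 to 1.87). The 3 CD3-negative classes were close to one another: 33.8 CPM in the Ncr1 class, 34.1 in cells with neither transcript and 43.9 in the Ccr6 class unstimulated, then 63.7, 63.3 and 62.0 with IL-23, the last 3 with overlapping intervals. T cells had the higher levels, except that γδ T cells unstimulated overlapped the unstimulated Ccr6 class. The γδ T class was at 56.6 CPM (45.5 to 69.6) and 150.3 CPM (132.6 to 169.6), and the αβ T class at 80.6 (65.8 to 97.8) and 121 (99.9 to 145.5).

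In γδ T cells the Ikzf1 ratio was 2.65-fold (2.08 to 3.41), from 90 to 262 UMIs, the highest of the 5 classes. It was 1.88-fold in the Ncr1 class, 1.86-fold in cells with neither transcript, 1.5-fold (1.14 to 1.98) in αβ T cells and 1.41-fold (1.24 to 1.60) in the Ccr6 class. The γδ T ratio was 1.76 times the αβ T ratio (1.23 to 2.52) and 1.40 times that of the Ncr1 class (1.06 to 1.86), by counting error. Thinned to equal depth, 11.2% of unstimulated and 26.6% of IL-23 γδ T cells had an Ikzf1 UMI, beside 28.4% and 57.0% as counted. In αβ T cells the thinned share was 15.6% and 14.3%, from 25 of 160 and 14 of 98 cells. The thinned log2 ratio was -0.22 in place of 0.59, which did not reach 1.5-fold. Thinning discards most UMIs of this class, so that value cannot tell an effect of depth from counting error. The Ccr6 class lay below 1.5-fold but passed it under TMM scaling, at a log2 ratio of 0.61.

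Within γδ T cells the Ikzf1 difference was present with and without Trdv4, a variable segment of the δ chain. Cells with a Trdv4 UMI (148 and 129) were at 61.9 CPM unstimulated and 133 CPM with IL-23. Cells without one (84 and 92) were at 47.2 and 174.8 CPM. Both subsets were therefore higher in the IL-23 library, from 63 to 138 UMIs and from 27 to 124 UMIs.

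Ikzf2, which encodes Helios, separated the classes. The order of the 10 class and library levels began with the Ccr6 class unstimulated at 127 CPM, αβ T cells at 133 with IL-23 and 146 unstimulated, which overlapped, and then the Ccr6 class with IL-23 at 189 CPM. Cells with neither transcript followed at 274 CPM unstimulated. The γδ T class unstimulated (445), cells with neither transcript with IL-23 (458) and the Ncr1 class unstimulated (468) overlapped, and above them were γδ T cells with IL-23 at 629 CPM and the Ncr1 class with IL-23 at 763 CPM (746.0 to 780.5). Ncr1-class and γδ T cells thus held the upper end of the order in both libraries.

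The Ikzf2 level was higher with IL-23 in 4 of the 5 classes. In CD3-negative cells it was 275 CPM (14655 UMIs) unstimulated and 461 CPM (25835 UMIs) with IL-23, 1.68-fold (1.64 to 1.71). The ratio was 1.63-fold in the Ncr1 class, 1.68-fold in cells with neither transcript, 1.49-fold (1.38 to 1.60) in the Ccr6 class and 1.42-fold (1.29 to 1.56) in γδ T cells. The Ccr6 ratio passed 1.5-fold when cells were thinned, when the 5% of cells with most UMIs were left out, under TMM scaling and with totals that left out the 50 most abundant genes. In αβ T cells the level was 146 CPM (186 UMIs) and 133 CPM (125 UMIs), a log2 ratio of -0.13 with an interval of -0.47 to 0.20 that includes no difference. The γδ T ratio was 1.55 times the αβ T ratio (1.21 to 1.98) by counting error.

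In the Ncr1 class the distribution of Ikzf2 UMIs over cells lay higher in the IL-23 library. Cells with 1 UMI were 18.2% unstimulated and 9.78% with IL-23, those with 2 were 16.9% and 10.5%, and those with 3 were 10.9% and 9.70%. These shares are as counted, and the median depth of the class was 5925.5 UMIs unstimulated and 7286.5 with IL-23. The part of depth in them was not tested. Of the cells of that class, 20.6% without IL-23 and 8.66% with it had 0 UMIs, and cells with at least 7 UMIs were 13.1% and 37.8%. In γδ T cells the same shares were 23.3% and 9.05% at 0, and 12.5% and 26.7% at 7 or more. The Ccr6 class stayed mostly at 0, with 66.3% and 53.8% of cells, and had 1.5% and 4.99% at 7 or more. In αβ T cells 65.0% and 68.7% had 0 UMIs while 4.91% and 7.07% had at least 7, so a minority of that class carried most of its Ikzf2. The most Ikzf2 UMIs in a single CD3-negative cell was 32 unstimulated and 36 with IL-23.

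**Figure D2:**
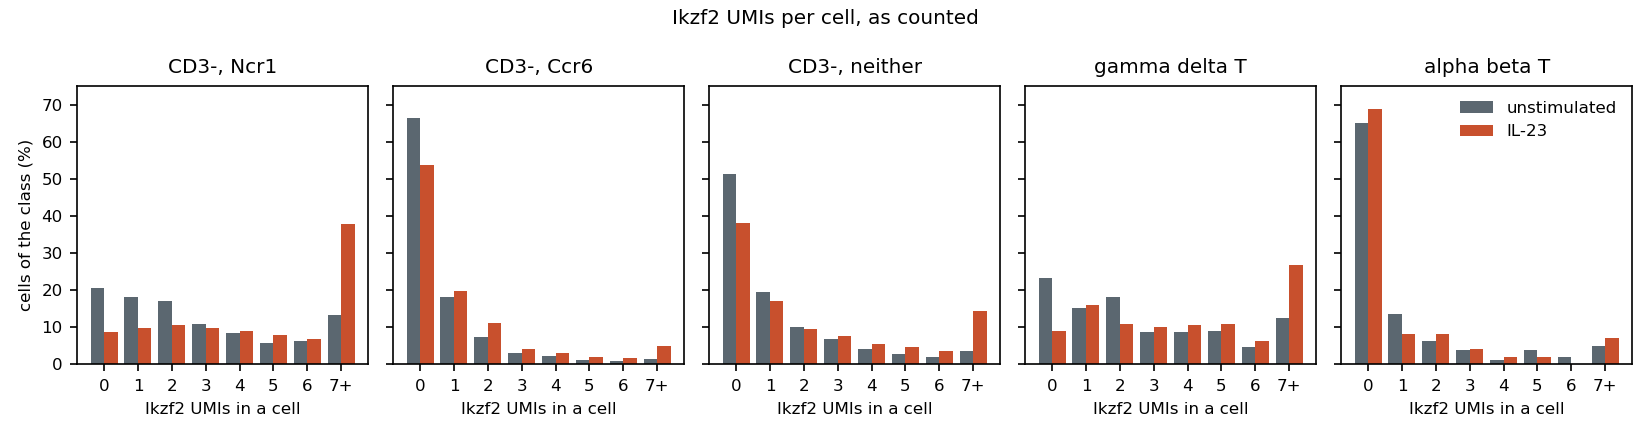
Share of cells (y axis, percent of the class) with each number of Ikzf2 UMIs (x axis, 0 to 7 or more, as counted and not thinned) in 5 classes, grey for the unstimulated and orange for the IL-23 library. Ncr1-class cells with at least 7 UMIs were 13.1% and 37.8%, while 66.3% and 53.8% of Ccr6-class cells had 0.

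At an equal depth the Ikzf2 shares kept this order. An Ikzf2 UMI was found in 52.2% (49.2 to 55.3) of unstimulated and 68.2% (65.5 to 70.7) of IL-23 Ncr1-class cells, and in 15.6% and 22.5% of Ccr6-class cells. The shares were 31.4% and 42.5% in cells with neither transcript, 49.1% and 62.8% in γδ T cells and 19.4% and 17.3% in αβ T cells. As counted, the Ncr1-class shares were 79.4% and 91.3%. Cells with at least 5 UMIs of the macrophage genes C1qa and C1qb were also counted, and numbered 9 and 5, with median depths of 5559 and 6183 UMIs. Of these, 1 of 9 and 1 of 5 had a UMI of Ikzf1, of Ikzf2 and of Ikzf3, 0 and 1 had Ikzf4, and 1 and 0 had Ikzf5. The single cell with Ikzf2 held 4 UMIs of it unstimulated and 8 with IL-23, and whether these cells were doublets was not tested. So few cells, of a type not shown to lack the family, give no background share.

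**Figure D3:**
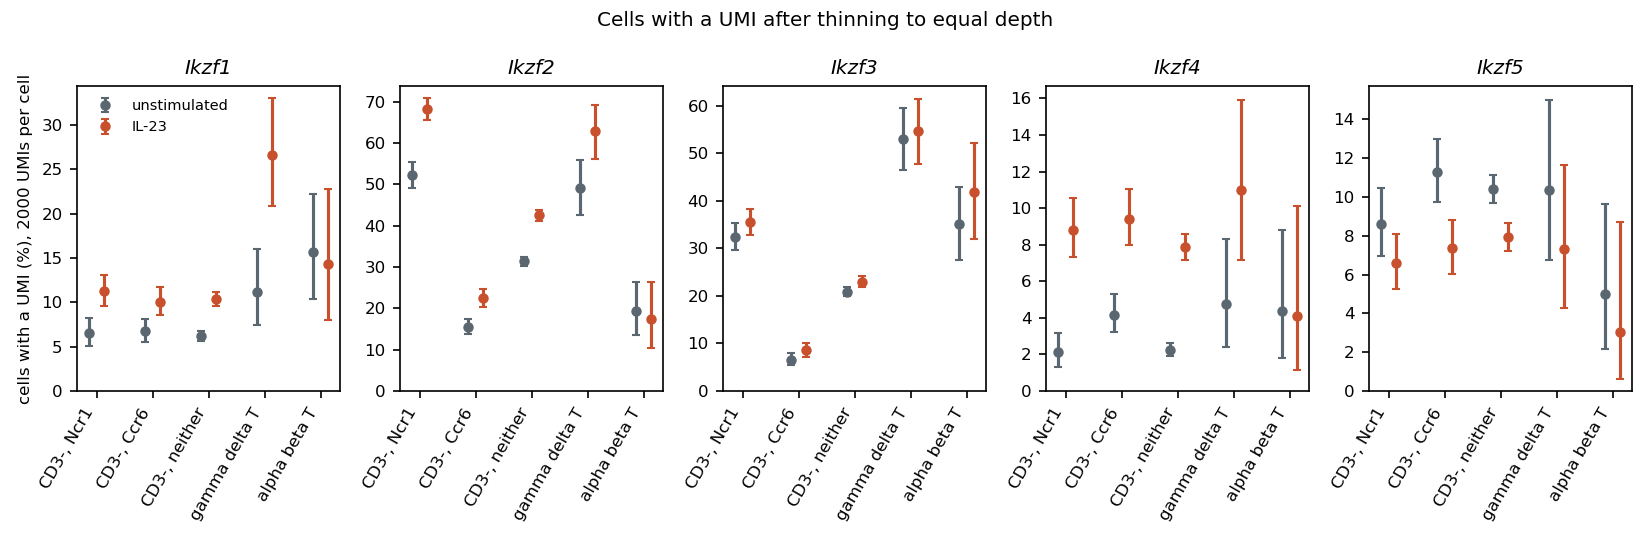
Share of cells with at least 1 UMI of each member (y axis, percent, after each cell was thinned to 2000 UMIs) in 5 classes (x axis), grey for the unstimulated and orange for the IL-23 library, with Clopper-Pearson 95% intervals. Ikzf2 in the Ncr1 class stood at 52.2% and 68.2%, and Ikzf4 in all 3 CD3-negative classes was higher in the IL-23 library.

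Ikzf3, which encodes Aiolos, differed far more between classes than between libraries. The Ccr6 class was lowest, at 50.2 CPM (45.7 to 55.1) unstimulated and 62.7 CPM (58.1 to 67.6) with IL-23. Cells with neither transcript were at 148 and 166 CPM, and the Ncr1 class at 230 and 258 CPM. The αβ T class, at 246 and 282 CPM, overlapped its neighbour of the Ncr1 class in each library. The γδ T class was highest at 408 CPM (377 to 441) and 469 CPM (437 to 502).

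The Ikzf3 ratios of the IL-23 over the unstimulated library were all below 1.5-fold. They were 1.14-fold in CD3-negative cells (7559 and 9095 UMIs), 1.12-fold in the Ncr1 class and in cells with neither transcript, log2 0.32 (0.15 to 0.50) in the Ccr6 class, and 1.15-fold in γδ T cells and in αβ T cells (0.97 to 1.35 in the latter). Thinned shares of cells with an Ikzf3 UMI were 32.4% and 35.5% in the Ncr1 class, 6.60% and 8.59% in the Ccr6 class, 53.0% and 54.6% in γδ T cells and 35.0% and 41.8% in αβ T cells. In each of these classes the intervals of the libraries overlapped. In cells with neither transcript the shares were 20.8% (19.9 to 21.8) and 23.0% (21.9 to 24.1), which did not overlap.

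Ikzf5, which encodes Pegasus, was the member that was lower in the IL-23 library. Its level in CD3-negative cells was 56.3 CPM (2998 UMIs) unstimulated and 39.3 CPM (2202 UMIs) with IL-23, 1.43 times lower (1.36 to 1.51). All 5 classes were lower with IL-23: by 1.32 times in the Ncr1 class (48.0 and 36.4 CPM), 1.5 times in the Ccr6 class (60.8 and 40.5 CPM), 1.43 times in cells with neither transcript (56.2 and 39.4 CPM), 1.65 times in γδ T cells (50.3 and 30.4 CPM) and 1.90 times in αβ T cells (46.9 and 24.4 CPM, 60 and 23 UMIs). Within each library each neighbour in the order of Ikzf5 levels overlapped the next, although the unstimulated Ncr1 class (43.0 to 53.5) lay below the unstimulated Ccr6 class (55.8 to 66.2). Pstk, which overlaps Ikzf5 on the opposite strand, was lower by a similar factor (10.5 and 7.26 CPM), and the part of overlapping reads was not tested.

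The 1.5-fold call of Ikzf5 in the Ccr6 class sits at the edge, with a log2 ratio of -0.59. It ended without cells of at least 20 Igkc UMIs, without the 5% of cells with most UMIs, with totals that left out the 50 most abundant genes, and under TMM scaling, where the lowest size was -0.47. In γδ T cells the call ended on thinning, at -0.45, and in αβ T cells without the 5% of cells with most UMIs, at -0.35. The sign stayed negative under each of the 13 alternatives in each class. Thinned shares of CD3-negative cells with an Ikzf5 UMI were 10.4% (9.77 to 11) and 7.59% (7.03 to 8.18).

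**Figure D4:**
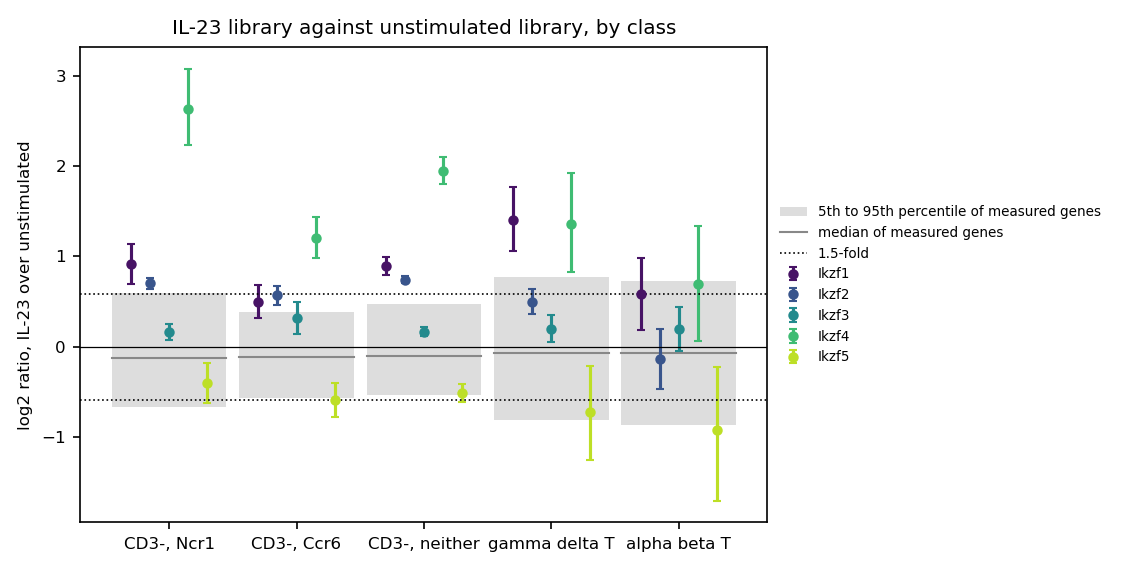
Log2 ratio of the IL-23 over the unstimulated library (y axis) for each member in 5 classes (x axis), with exact conditional 95% counting intervals. The grey boxes span the 5th to 95th percentile of all measured genes with their median as a line, and dotted lines mark 1.5-fold. Ikzf4 lies above the box in 4 classes and Ikzf5 below 0 in all 5.

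Counted by class, 3 members were at least 1.5-fold higher and 0 lower in the Ncr1 class, where 5.18% of measured genes were higher and 7.26% lower. In cells with neither transcript the counts were the same, 3 and 0, beside 4.09% and 3.89% of genes. The Ccr6 class had 1 member higher (Ikzf4) and 1 lower (Ikzf5), beside 2.87% and 4.32%. In γδ T cells 2 were higher (Ikzf1 and Ikzf4) and 1 lower (Ikzf5), beside 8.01% and 10.6%, and in αβ T cells the same members gave 2 and 1, beside 7.83% and 12.2%. All 3 αβ T calls ended without the 5% of cells with most UMIs, with log2 ratios of 0.47 for Ikzf1, 0.45 for Ikzf4 and -0.35 for Ikzf5, and Ikzf1 and Ikzf4 turned to -0.22 and -0.21 on thinning. The members were chosen with these ratios known, so nothing is read from the counts against the background.

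The Ncr1 and Ccr6 classes differed most in Ikzf2 and Ikzf3. In the unstimulated library Ikzf2 was 3.68-fold (3.44 to 3.94) and Ikzf3 4.57-fold (4.12 to 5.09) higher in the Ncr1 class, and Ikzf4 was 3.14 times lower (2.34 to 4.34). Those 2 higher and 1 lower members stand beside 9.49% and 13.9% of the 7284 genes measured. Only 97 genes had a higher ratio than Ikzf2 and 67 a higher one than Ikzf3. Ikzf1 and Ikzf5 were 1.30 and 1.27 times lower in the Ncr1 class, both under the size called. Under a rule of at least 2 UMIs for the class transcript, Ikzf1 passed it too.

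With IL-23 the contrast in Ikzf2 and Ikzf3 was still there and that in Ikzf4 was smaller. Ikzf2 was 4.03-fold (3.84 to 4.24) and Ikzf3 4.11-fold (3.78 to 4.48) higher in the Ncr1 class, 2 higher members beside 9.45% of genes. Ikzf4 was 1.17 times lower (1.03 to 1.32), so 0 members were lower by the size called, beside 12.8% of genes. Ikzf1 was 1.03-fold higher and Ikzf5 1.11 times lower, with intervals that include no difference. Thinning reduced the unstimulated Ikzf4 contrast to a log2 ratio of -0.97 from -1.65.

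The γδ and αβ T classes differed in the same members. Ikzf2 was 3.05-fold (2.60 to 3.61) higher in γδ T cells unstimulated and 4.72-fold (3.94 to 5.75) higher with IL-23, and Ikzf3 was 1.66-fold higher in each library. These are 2 higher and 0 lower members, beside 10.4% and 13% of genes unstimulated and 12.1% and 13% with IL-23. Ikzf1 was 1.42 times lower in γδ T cells unstimulated (1.06 to 1.91) and 1.24-fold higher with IL-23, with an interval of 0.99 to 1.56. In the unstimulated library thinning ended the Ikzf3 call, at a log2 ratio of 0.53, and gave one for Ikzf5, at 0.89 in place of 0.10, which also passed without the 5% of cells with most UMIs, at 0.63. Thinned cells gave 5 members higher in γδ T cells of the IL-23 library, with log2 ratios of 1.23 for Ikzf1, 1.46 for Ikzf4 and 1.17 for Ikzf5, each from few UMIs. The shares of genes above are for cells as counted, so nothing is read from that count.

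Cells cut by other transcripts showed where the members sat outside these classes. CD3-negative cells with a Ctla4 UMI (484 and 2122) held Ikzf2 at 491 and 740 CPM and Ikzf3 at 268 and 252 CPM, and their Ikzf4 was at 9.03 and 50.4 CPM. CD3-negative cells with Cd4, a mark of lymphoid tissue inducer cells, were low in Ikzf2 at 127 and 178 CPM and in Ikzf3 at 63.1 and 67.6 CPM. Cells with at least 2 UMIs of the class II gene H2-Ab1 had a similar level, 127 and 187 CPM of Ikzf2 and 59.1 and 55.1 CPM of Ikzf3. Cells with an Il17a UMI (561 and 1959) held Ikzf2 at 162 and 336 CPM and Ikzf4 at 15.1 and 57.1 CPM. The number of cells with Ctla4 or Il17a differed between libraries, so these subsets need not hold like cells in both.

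Members were also counted together in single cells, each thinned to 2000 UMIs, as a description of detection. In the unstimulated CD3-negative cells 47.1% had a UMI of none of the 5 members, 37.4% of 1, 13.7% of 2 and 1.75% of 3. In the IL-23 library the shares were 37.3%, 38.6%, 19.6% and 4.07%. An Ikzf3 UMI was found in 27.4% (25.8 to 29.0) of unstimulated cells with an Ikzf2 UMI and in 16.5% (15.6 to 17.4) of those without, and in 31.3% and 15.7% with IL-23. Both genes were high in the Ncr1 class and low in the Ccr6 class, and the part of the classes in this pairing was read from the values within each class.

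Within a class the Ikzf2 and Ikzf3 pairing varied. In the Ncr1 class the Ikzf3 shares with and without Ikzf2 were 33.3% and 31.5% unstimulated, with overlapping intervals, and 39.3% (36.0 to 42.7) and 27.5% (23.1 to 32.1) with IL-23. In the Ccr6 class they were 15.3% (10.9 to 20.5) and 5.00% (3.87 to 6.35) unstimulated, and 13.2% and 7.25% with IL-23. Cells with neither transcript gave 27.3% and 17.9%, then 30.9% and 17.1%. Ikzf4 showed little pairing with Ikzf3 in IL-23 CD3-negative cells, at 8.54% of cells with and 8.25% of cells without an Ikzf3 UMI.

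The IL-23 cells of the CD3-negative group were then divided by a UMI of each member, after thinning, and genes of ILC3 function were summed on both sides. This division was chosen after the values of the members were seen. Ikzf2-positive cells held more Ctla4, an inhibitory receptor (248 and 80.1 CPM with and without), more Tbx21, the T-bet factor of the Ncr1 subset (14.8 and 4.87), and more of the granzyme gene Gzma (34.6 and 8.05). They held less Ccr6 (25.0 and 62.8 CPM), less Il17a (259 and 356) and less Il17f (619 and 832). Il22, the main cytokine gene of these cells, was at 28159 and 23666 CPM. Ikzf3-positive cells were alike in Ctla4 (268 and 119) and Il17f (577 and 788), while their Il17a was close on both sides (317 and 313).

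Ikzf4-positive cells had another profile. They held more Il17a (451 and 302 CPM with and without Ikzf4), more Il17f (978 and 719) and more Il22 (29658 and 25225), while Ctla4 (155 and 152) and Ahr (139 and 132) had overlapping intervals. Ikzf1-positive cells were higher in Il17f (1037 and 706 CPM), in Ahr (174 and 127) and in Ctla4 (208 and 146). Ikzf5-positive cells were lower in Ctla4 (117 and 155) and level in Il22 (25675 and 25587).

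The same division inside the classes gave differences that were smaller, larger or the other way round, depending on the class and the gene. In the Ncr1 class of the IL-23 library Ctla4 was at 386 and 292 CPM with and without Ikzf2, and Tbx21 at 22.9 and 21.4, with overlapping intervals for the latter. In the Ccr6 class Ctla4 was at 73.8 and 15.6 CPM. For Ikzf4, Il17a was at 573 and 315 CPM in cells with neither transcript but at 320 (256 to 395) and 420 (395 to 445) in the Ccr6 class, where the order was the other way round with intervals that nearly met. Il17f in the Ccr6 class was at 1610 and 935 CPM with and without Ikzf1, in 145 and 1298 cells. These values are a few of the many computed over members, classes and genes, and no test was run on them.

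**Figure D5:**
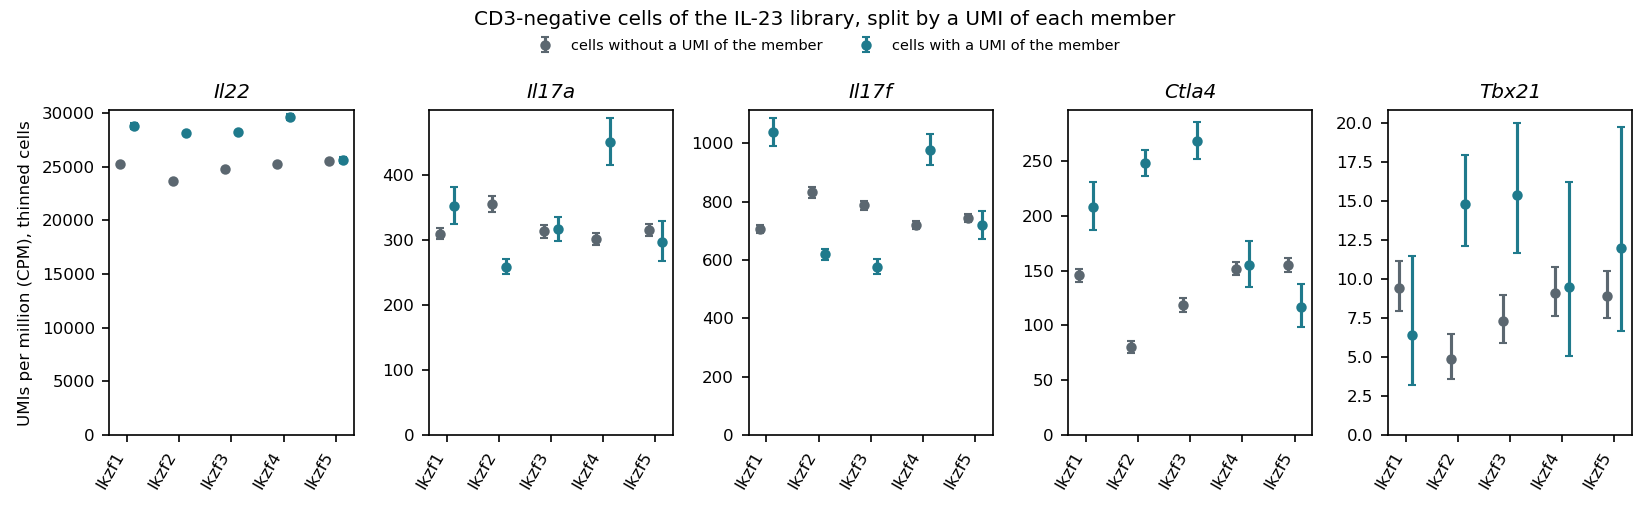
Level of 5 effector genes (y axes, CPM in cells thinned to 2000 UMIs) in CD3-negative cells of the IL-23 library without (grey) and with (teal) a UMI of each member (x axis), with exact Poisson 95% intervals. Ctla4 stood at 248 CPM in cells with and 80.1 CPM in cells without Ikzf2, and Il17a at 451 and 302 CPM with and without Ikzf4.

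In CD3-negative cells as a whole the measured partners of the family differed by less than 1.5-fold between libraries. Of 18 NuRD and corepressor genes 17 were measured in CD3-negative cells, and 0 were at least 1.5-fold higher or lower. Over all measured genes 3.96% were higher and 3.57% lower. The median log2 ratio of the list was -0.05, beside -0.11 over all measured genes. Chd4, the NuRD remodelling subunit that binds Ikaros, was at 431 and 417 CPM. Of 11 genes for stability and phosphorylation, all measured, 0 passed the size in either direction, and the median was -0.05. Counts of 0 in lists this short are near the shares over all genes, so no result about the partners is read from them. Crbn, which encodes cereblon, the adaptor through which thalidomide analogues direct human Ikaros and Aiolos to degradation, was at 71.4 and 62.6 CPM. Crbn was higher in αβ T cells, at 178 and 174 CPM, than in γδ T cells, at 51.6 and 52.8 CPM. Single classes held a few partners past the size, named here after their values were seen. The casein kinase subunit gene Csnk2a2 was higher in the Ncr1 class (63.6 and 96.7 CPM), beside 5.18% of all genes higher there. The NuRD genes Mta1 (13 and 31 UMIs) and Mta3 (32 and 55) and the ubiquitin ligase scaffold gene Cul4a (17 and 29) were higher in γδ T cells, 3 genes over both lists beside 8.01%, and the intervals of the last 2 included no difference. In αβ T cells Rbbp7 (152 and 71 UMIs) and Cul4b (32 and 15) were lower, beside 12.2%, and the interval of Cul4b included no difference.

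Genes known as targets or regulators of the family in lymphocytes formed the last list. Of 16 listed genes 13 were measured in CD3-negative cells, 5 were at least 1.5-fold higher in the IL-23 library, 1 was lower and 7 lay between, beside 3.96% higher and 3.57% lower over all measured genes, with a median log2 ratio of 0.16 beside -0.11 over all measured genes. Prdm1, which encodes the repressor Blimp-1, was at 13.5 and 87.1 CPM, the interferon gene Ifng at 2.50 and 15.6, the growth regulator Myc at 5.16 and 25.4, and Notch1 at 37.4 and 77.5. Ahr, the receptor that Ikaros has been described to restrain in ILC3s, was at 43.4 and 139 CPM. The lower gene was Bcl2, a survival factor, at 107 and 52.6 CPM. Stat3 was at 655 and 927 CPM, 1.41-fold. Il2, the gene silenced by Aiolos in T helper 17 cells, was below the measured level with 141 and 184 UMIs (2.65 and 3.28 CPM).

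The list was also counted in each class. In the Ncr1 class 5 of 13 measured genes were higher and 3 lower, beside 5.18% and 7.26% of all genes. The Ccr6 class had 5 and 1 of 11, beside 2.87% and 4.32%, and cells with neither transcript 5 and 1 of 12, beside 4.09% and 3.89%. The γδ T class had 4 and 2 of 10, beside 8.01% and 10.6%, and in αβ T cells 5 and 0 of 10, beside 7.83% and 12.2%. The list was chosen with earlier results of these data known, so these counts are a description. Ahr was higher in each of the 5 classes, from 44.1 to 157 CPM in the Ncr1 class and from 45.3 to 116 CPM in γδ T cells. Ikzf1 and Ahr were thus both higher in the IL-23 library, each of them in 5 of 5 classes by its CPM.

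The genes nearest to each member in pattern were ranked over the 10 class and library profiles by the root mean square difference of the mean-centred log2(CPM + 5), among 8440 genes with at least 10 CPM in 1 of the profiles. The profiles share their libraries, and no p-value is given. Nearest to Ikzf4 were Cysltr1, a leukotriene receptor (0.21), Apobec3, a cytidine deaminase (0.23), and Fas, a death receptor (0.27). Cysltr1 ran from 64.2 CPM in the unstimulated Ncr1 class to 259 CPM in the IL-23 Ccr6 class. Nearest to Ikzf1 were Gm15283 (0.20), Tasp1 (0.23) and Vps54 (0.23).

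Ikzf2 had no gene as close, its nearest being the transporter gene Slc16a6 (0.33), Arrdc3 (0.35) and Slc7a6os (0.36). Slc16a6 was at 119 and 179 CPM in the Ncr1 class and at 25.5 and 43.0 CPM in the Ccr6 class. Nearest to Ikzf3 were Ppp1r14c (0.23), the T cell receptor constant gene Trbc1 (0.28) and Selplg, the selectin ligand (0.33). Nearest to Ikzf5 were Hmox2, a heme oxygenase (0.10), Tsix (0.12) and Ccdc28a (0.13), and Tsix, which is antisense to Xist, cannot be told apart from it without strand. Among the members themselves Ikzf1 and Ikzf4 were the closest pair, at 0.45.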

How the data were processed

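RNA of 2 libraries of sorted intestinal cells was measured, 1 per group. The authors deposited raw counts, whole numbers of UMIs for each of 32285 genes in each barcode. By the submitters' processing notes the build was mm10 and the tool Cell Ranger 3.1.0, whereas per the file headers it was cellranger 6.0.0, and nothing in the sources used here settles which made these counts. Not given in the sources used here are the annotation, the strand setting of the counting and the rule that called cells. The libraries held 58443284 and 62291905 UMIs over all barcodes.

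The filter of 500 genes or more and no more than 10% mitochondrial UMIs kept 20041 of 21536 barcodes. No doublet caller was run, and leaving out the 5% of cells with most UMIs is the alternative that bears on doublets. Classes were cut at 1 UMI of the transcripts named in the report. CD3-negative cells with Ncr1 and Ccr6 together (48 and 59) count in the values of all CD3-negative cells but in none of the classes cut from them. Cells with Trdc and Trac together (23 and 13), with Cd3e and neither receptor gene (77 and 97) or with Cd3d or Cd3g and no Cd3e (220 and 238) were kept apart and are not described. UMIs were summed per class and library and scaled to CPM. Log2 ratios had 0.5 UMI added to each sum and exact conditional binomial intervals, levels exact Poisson intervals and shares Clopper-Pearson intervals, all at 95%. UMIs mark molecules, yet all intervals cover counting error only, as cells of 1 library are not replicates. For shares each cell was thinned to 2000 UMIs (seed 7).

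The members, the classes and the gene lists were chosen with earlier results of these data known. Named genes were the 5 members, the listed partner and target genes of at least 1.5-fold in all CD3-negative cells (up to 8 per list), Crbn, Chd4, Ahr and Il2 whatever their size, and the 3 genes nearest each member in pattern. Stat3, Pstk, Gm29114 and the effector genes compared by member were chosen outside that rule. The ratio and its interval were tested on simulated counts with known fold changes. Positions are from GENCODE M21 (GRCm38), matched by gene identifier for 5 of 5 members, and windows from RefSeq (GRCm38.p6).

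Alternatives were other cell filters, class rules of 2 UMIs, doubly marked cells counted in both classes, cells left out by depth, shared barcode or foreign markers, thinned cells, the mean of each cell's CPM, TMM factors, totals without the 50 most abundant genes, other sizes and no filter on low genes. Leaving out cells with at least 20 Igkc UMIs was added after seeing the data. Python 3.11.15, numpy 2.4.6, scipy 1.17.1, pandas 2.3.3, matplotlib 3.10.9 and R 4.3.3 with edgeR 4.0.16 (TMM factors of the counts alone, no test) were used.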

Additional observations from a re-analysis of the deposited data

Results flagged for a closer look

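The Ikzf2 log2 ratio of the IL-23 over the unstimulated library was -0.13 in αβ T cells, while it was above 0 in the other 4 classes. The difference between classes was not tested over samples, and the counting interval of -0.47 to 0.20 includes 0. Counting cells with both Trdc and Trac in both T classes gave 0.01. The class held 163 and 99 cells and 186 and 125 Ikzf2 UMIs. Its regulatory T cell list summed to 1184 and 1420 CPM, with Foxp3 found in the unstimulated library alone, and the part of such cells was not tested.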

How the results depend on the processing

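No paired analysis was possible because each group has 1 library and no replicate numbers are shared. Of 650 values of the 50 log2 ratios under 13 alternatives, 591 kept their sign within the counting error, 53 kept it but went beyond that error, and 6 changed sign. Ratios of at least 1.5-fold made up 2 of the 6, both in αβ T cells thinned to 2000 UMIs, Ikzf1 at -0.22 and Ikzf4 at -0.21. The other 4 were under 1.5-fold: Ikzf2 in αβ T cells (0.01 with cells of both Trdc and Trac in both classes), Ikzf4 between γδ and αβ T cells unstimulated (0.02 on thinning), and Ikzf1 (-0.24) and Ikzf5 (0.01) between the Ncr1 and Ccr6 classes with IL-23 (classes cut at 2 UMIs). The cause was not tested. In all CD3-negative cells thinning gave Ikzf3 0.26. TMM scaling gave Ikzf1 0.94, Ikzf2 0.86, Ikzf3 0.31 and Ikzf5 -0.40, which is its own constant shift, and totals without the 50 most abundant genes gave Ikzf2 0.77.

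Counts of members called depend on the size asked for. The share of all genes was not computed at these other sizes, so nothing is read from the counts against a background. At 2-fold, 1 member was higher with IL-23 in all CD3-negative cells, in the Ncr1 class and in cells with neither transcript, and 0 were lower in the Ccr6 class, γδ T or αβ T cells or higher in αβ T cells. At 2-fold 1 was higher in γδ than αβ T cells in either library. At the smaller of the alternative sizes, 1 was lower with IL-23 in all CD3-negative cells, in the Ncr1 class and in cells with neither transcript, 3 were higher in the Ccr6 class, 3 were lower in the Ncr1 than the Ccr6 class unstimulated, and 2 were lower in γδ than αβ T cells unstimulated.

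In the Ccr6 class 2 members were higher and 0 lower without the 5% of cells with most UMIs and with totals without the 50 most abundant genes, 3 and 0 under TMM scaling, 2 were higher on thinning, and 0 were lower without cells of at least 20 Igkc UMIs. In γδ T cells 0 were lower on thinning. In αβ T cells 1 was higher at no more than 5% mitochondrial UMIs and by the mean of each cell's CPM, 0 on thinning, and 0 higher and 0 lower without the 5% of cells with most UMIs. With classes cut at 2 UMIs, 2 were lower in the Ncr1 than the Ccr6 class unstimulated. Unstimulated, 1 was lower in γδ than αβ T cells without the 5% of cells with most UMIs and by the mean of each cell's CPM. With IL-23, 5 were higher in γδ T cells on thinning. The αβ T class held 163 and 99 cells, with sums of 41 and 49 UMIs for Ikzf4 and 60 and 23 for Ikzf5.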

Other observations

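In the Ccr6 class of the IL-23 library, thinned to 2000 UMIs per cell, 1 of 106 cells with an Ikzf5 UMI also had an Ikzf1 UMI, 0.94% (0.02 to 5.14, Clopper-Pearson), against 144 of the 1337 cells without Ikzf5, 10.8% (9.16 to 12.6). In cells with neither transcript of the same library the shares were 7.78% and 10.5%, and in the Ncr1 class 9.76% and 11.3%, with overlapping intervals in both. In the unstimulated Ccr6 class they were 5.85% and 6.85%. This pair was picked out after the shares of all pairs of members in all classes were seen, and no test was run on it.

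Gm28112, an annotated transcript that lies within an intron of Ikzf2 on the same strand, stood at 8.69 CPM in unstimulated and 17.7 CPM in IL-23 CD3-negative cells, and Gm29112, also within Ikzf2, at 0.957 and 2.43 CPM. Whether these counts hold reads of unspliced Ikzf2 was not tested.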
